A study of Homo sapiens with 4 samples.

Results

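The 10 genes described here are long noncoding RNA genes that carry small nucleolar RNAs (snoRNAs) in their introns: GAS5, SNHG1, SNHG3, SNHG5, SNHG6, SNHG7, SNHG8, SNHG12, SNHG15 and ZFAS1. They were taken as a list of named snoRNA host genes and found by Ensembl identifier among the 63856 genes of the count table. All 10 had enough counts to be tested, among 15830 tested genes. RefSeq places at least 1 snoRNA within each of them, 35 in all, of which 25 are of the box C/D class and 10 of the box H/ACA class.

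RNA-seq was performed on MCF10A, a non-tumorigenic human breast epithelial cell line, to ask which transcripts differ when the transcription factor HSF1 is overexpressed. HSF1 is the main activator of the heat shock response and binds arrays of short inverted repeats known as heat shock elements. There were 4 libraries of ribosomal RNA-depleted total RNA: 2 of wild type cells that were not transduced and 2 of cells stably transduced with a lentiviral pLVX vector carrying the HSF1 coding sequence (HSF1-pLVX) and kept under puromycin during selection. Both variants were grown in DMEM/F12 with horse serum, insulin, hydrocortisone, EGF and cholera toxin. None of the 4 libraries came from cells with the empty vector, so vector, selection and separate passage cannot be told apart from HSF1. The sources used here do not say whether the selected cells were a clone. The study's methods call the replicates biological without describing separate cultures, and the p-values measure only the spread between these libraries.

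SnoRNAs guide the chemical modification and processing of ribosomal RNA: box C/D snoRNAs direct methylation of the ribose and box H/ACA snoRNAs direct pseudouridylation. In vertebrates they are mostly released from introns after splicing of a host transcript. Hosts are often translation-related protein genes or, as here, genes whose spliced RNA encodes no known conserved protein. Many hosts start with a 5′ terminal oligopyrimidine tract, a C followed by a run of C and T that is typical of ribosomal protein genes. The spliced RNA of several noncoding hosts is removed by nonsense-mediated decay when it is translated, so its level reflects both synthesis and decay.

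The starts of the host genes are shown first because the pyrimidine run at the first base is the sequence feature that hosts are known for. Each line gives 30 bases before the RefSeq first base and 20 bases from it on (GRCh38.p14, 5′ to 3′ on the strand of the gene), and capitals mark the run of C and T that begins with a C at the first base.
GAS5: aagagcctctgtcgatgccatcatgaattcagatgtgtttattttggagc
SNHG1: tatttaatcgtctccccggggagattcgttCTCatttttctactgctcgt
SNHG3: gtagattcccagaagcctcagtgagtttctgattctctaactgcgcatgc
SNHG5: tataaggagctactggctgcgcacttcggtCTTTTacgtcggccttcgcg
SNHG7: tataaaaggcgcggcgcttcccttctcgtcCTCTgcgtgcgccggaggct
SNHG8: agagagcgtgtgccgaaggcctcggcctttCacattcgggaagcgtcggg
SNHG12: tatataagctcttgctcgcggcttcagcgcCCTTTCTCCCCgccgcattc
ZFAS1: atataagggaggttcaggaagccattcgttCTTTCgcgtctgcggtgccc

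The run was 11 bases long in SNHG12, 5 in SNHG5 and ZFAS1, 4 in SNHG7, 3 in SNHG1 and 1 in SNHG8, and the RefSeq first base of GAS5 and SNHG3 did not begin one. A run of at least 4 bases was present in 4 of the 8 matched host genes and in 5.45% of the 35116 RefSeq promoters. The minimum of 4 was chosen after the sequences were seen. SNHG6 and SNHG15 had no entry among these promoters. The RefSeq first base lay 0 to 53 bases from the first counted base of SNHG1, SNHG3, SNHG5, SNHG7 and SNHG8, but 163, 464 and 1110 bases from that of GAS5, ZFAS1 and SNHG12, so a run is a property of the RefSeq start and not of a start measured in these cells.

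The deposited counts summed to between 18688109 and 24184285 per library. They are given below as CPM, counts scaled to 1000000 by the TMM-normalized library size. HSF1 itself was 194.8 ± 7.94 CPM (SD, n = 2) in wild type and 990.5 ± 11.5 CPM (SD, n = 2) in HSF1-pLVX cells, a log2 fold change of 2.35 (edgeR quasi-likelihood test, adjusted p = 1.14e-10). All 8 epithelial markers of the line were tested, and 4 were higher in HSF1-pLVX cells (KRT5, TP63, EGFR, ITGA6) and 4 lower (KRT14, KRT17, KRT18, EPCAM). Fibroblast markers summed to 7.88 to 10.9 CPM in wild type and 13.9 to 15.0 CPM in HSF1-pLVX libraries over 8 genes. Only 2 of these were tested: 1 was higher, at a log2 fold change of 5.16, and 1, at 0.19, was not past the threshold. The 5 blood markers summed to 0.159 to 0.646 CPM over all libraries, with PTPRC at 0, and the 5 endothelial markers to 1.94 to 3.04 CPM in wild type and 13.3 to 14.3 CPM in HSF1-pLVX libraries, mostly KDR. Their part in the results was not tested, and in bulk RNA fewer cells of a type and less RNA per cell cannot be told apart.

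Of the 10 host genes, 9 were higher in HSF1-pLVX cells and 0 were lower at an adjusted p of 0.05 by edgeR, DESeq2 or limma-voom, with 0 lower also at an unadjusted p of 0.05 by edgeR. SNHG12 alone was not past the threshold. Among all tested genes 32.7% were called higher and 33.2% lower. The rise was at least 2-fold in 7 host genes, against 14.9% of tested genes. In the same 9 genes both HSF1-pLVX libraries lay above both wild type libraries, which held for 42.1% of tested genes. The median log2 fold change was 1.33 over the 10 host genes and 0.02 over all tested genes. Among the 1586 tested lncRNA genes 28.5% were called higher and 19.2% lower, with a median of 0.24. Together the host genes summed to 303.3 and 328.1 CPM in the wild type libraries and to 742.4 and 841.3 CPM in the HSF1-pLVX libraries, a ratio of 2.51.

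**Figure D1:**
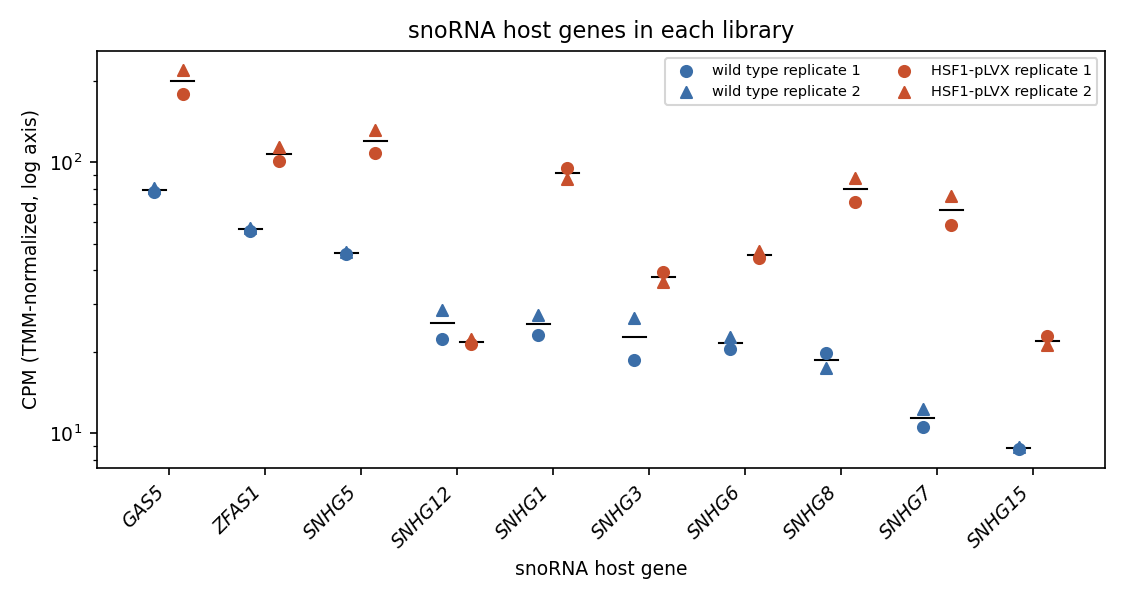
CPM of each snoRNA host gene (TMM-normalized, log axis) in the 4 libraries, with circles for replicate 1, triangles for replicate 2 and a bar at the mean of each variant. The HSF1-pLVX libraries lie above both wild type libraries in 9 genes and just below them in SNHG12.

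Among the hosts of box C/D snoRNAs, GAS5 (ENSG00000234741.7, chr1:173863900-173868882, minus strand) was the most abundant by CPM. GAS5 was named for its accumulation in growth-arrested cells, and its RNA can bind the glucocorticoid receptor. RefSeq places 11 snoRNAs within it, 10 of them box C/D. It was at 77.7 and 80.5 CPM in the wild type libraries and at 179 and 219.8 CPM in the HSF1-pLVX libraries. The HSF1-pLVX libraries differed from each other more than the wild type libraries did, yet were both more than 2-fold above them. The log2 fold change was 1.33 ± 0.104 (SE, 95% interval 1.11 to 1.56, adjusted p = 5.32e-08 by edgeR), which is 2.52-fold.

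SNHG1 (ENSG00000255717.6, chr11:62851988-62855914, minus strand), a host of 8 box C/D snoRNAs, is known for a spliced RNA with a short life. It was at 23.1 and 27.4 CPM in wild type and 95.6 and 86.8 CPM in HSF1-pLVX cells. No wild type value came near the HSF1-pLVX values. The gene rose 3.61-fold, with a log2 fold change of 1.85 ± 0.101 (95% interval 1.64 to 2.07, adjusted p = 1.17e-09).

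SNHG5 (ENSG00000203875.10, chr6:85660950-85678736, minus strand) hosts the paired box C/D snoRNAs SNORD50A and SNORD50B. Its wild type libraries were nearly the same, at 45.9 and 46.5 CPM, and its HSF1-pLVX libraries were at 109 and 131 CPM. The log2 fold change of 1.38 ± 0.0997 (95% interval 1.16 to 1.59, adjusted p = 2.34e-08) lay close to that of GAS5. SNHG6 (ENSG00000245910.8, chr8:66921684-66926398, minus strand), the host of SNORD87, was at 20.5 and 22.6 CPM in wild type and 44.3 and 47.0 CPM in HSF1-pLVX cells. Both pairs of libraries were tight, and the rise was 2.12-fold, a log2 fold change of 1.08 ± 0.0958 (95% interval 0.88 to 1.29, adjusted p = 1.90e-07).

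ZFAS1 (ENSG00000177410.12, chr20:49278178-49295738, plus strand) lies antisense to the 5′ end of ZNFX1 and hosts SNORD12, SNORD12B and SNORD12C. It was at 56.0 and 57.3 CPM in wild type and 102 and 114 CPM in HSF1-pLVX cells. Its rise of 1.90-fold (log2 fold change 0.93 ± 0.0883, 95% interval 0.74 to 1.12, adjusted p = 4.18e-07) was below the 2-fold line while the libraries of the variants stood well apart.

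Hosts of box H/ACA snoRNAs held both the strongest and the weakest responses. SNHG7 (ENSG00000233016.6, chr9:136721366-136728184, minus strand), the host of SNORA17A and SNORA17B, went from 10.5 and 12.3 CPM in wild type to 58.7 and 75.2 CPM in HSF1-pLVX cells. Every HSF1-pLVX value was several times every wild type value. This was the steepest rise among the host genes, 5.85-fold, with a log2 fold change of 2.55 ± 0.130 (95% interval 2.27 to 2.83, adjusted p = 6.50e-10). SNHG8 (ENSG00000269893.6, chr4:118278709-118279823, plus strand), the host of SNORA24, was at 19.8 and 17.4 CPM in wild type and 71.3 and 87.6 CPM in HSF1-pLVX cells. Its groups were as clearly apart, and it rose 4.26-fold, a log2 fold change of 2.09 ± 0.114 (95% interval 1.85 to 2.33, adjusted p = 1.22e-09).

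SNHG15 (ENSG00000232956.8, chr7:44983023-44986961, minus strand), the host of SNORA9, was the host gene with the lowest CPM in wild type, at 8.74 and 8.88, and reached 22.8 and 21.2 CPM in HSF1-pLVX cells. Replicates were close in both variants. The rise was 2.50-fold (log2 fold change 1.32 ± 0.117, 95% interval 1.07 to 1.57, adjusted p = 2.01e-07).

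SNHG3 (ENSG00000242125.3, chr1:28505980-28510892, plus strand) hosts SNORA73A and SNORA73B, also known as U17, which act in the cleavage of the ribosomal RNA precursor. It was at 18.7 and 26.7 CPM in wild type and 39.4 and 36.2 CPM in HSF1-pLVX cells. The wild type libraries were spread apart, which gave SNHG3 the largest standard error of the 10 host genes. It rose 1.67-fold (log2 fold change 0.74 ± 0.133, 95% interval 0.45 to 1.02, adjusted p = 0.000209). Leaving out HSF1-pLVX replicate 2 raised the adjusted p to 0.0444.

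SNHG12 (ENSG00000197989.13, chr1:28578538-28582983, minus strand) hosts 3 box H/ACA snoRNAs and the box C/D snoRNA SNORD99, and lies on the same arm of chromosome 1 as SNHG3. It was at 22.3 and 28.5 CPM in wild type and 21.3 and 22.2 CPM in HSF1-pLVX cells. The HSF1-pLVX libraries were a little below the lower wild type library, a pattern of 41.0% of tested genes. The log2 fold change was -0.23 ± 0.118 (95% interval -0.48 to 0.03) and was not past the threshold (edgeR, adjusted p = 0.107). Leaving out wild type replicate 1 gave a log2 fold change of -0.37 that passed the threshold (adjusted p = 0.00716), and without wild type replicate 2 the adjusted p was 0.817. The interval holds no rise of the size seen in any other host gene.

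**Figure D2:**
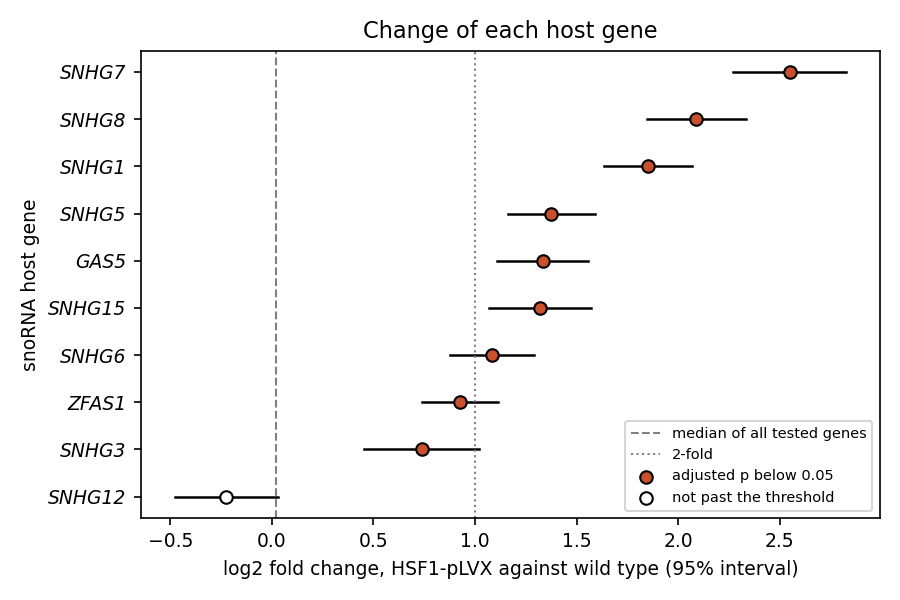
Log2 fold change of each snoRNA host gene in HSF1-pLVX against wild type cells, with its 95% interval from edgeR, a dashed line at the median of all tested genes (0.02) and a dotted line at 2-fold. The values run from -0.23 for SNHG12 to 2.55 for SNHG7, and the open point is the gene that was not past the threshold.

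Levels of different genes were compared per kb of counted exon. In wild type cells ZFAS1 was the highest of the host genes at 25.3 ± 0.386 CPM per kb (SD, n = 2), followed by GAS5 at 21.8 ± 0.544, SNHG8 at 20.2 ± 1.82, SNHG6 at 17.3 ± 1.22 and SNHG5 at 16.5 ± 0.160. A lower group was made of SNHG12 at 7.53 ± 1.30 CPM per kb, SNHG1 at 6.72 ± 0.805, SNHG3 at 5.56 ± 1.39, SNHG7 at 2.63 ± 0.280 and SNHG15 at 2.42 ± 0.0279. Within this order the library ranges overlapped between GAS5 and SNHG8, between SNHG6 and SNHG5, between SNHG12 and SNHG1, between SNHG1 and SNHG3, and between SNHG7 and SNHG15, so those neighbours were not separated by their replicates.

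In HSF1-pLVX cells SNHG8 came first at 86.1 ± 12.5 CPM per kb, ahead of GAS5 at 54.9 ± 7.99, ZFAS1 at 48.0 ± 3.86, SNHG5 at 43.0 ± 5.76 and SNHG6 at 36.6 ± 1.49. SNHG1 reached 24.3 ± 1.66 CPM per kb and SNHG7 15.4 ± 2.69, while SNHG3 was at 9.25 ± 0.545, SNHG12 at 6.44 ± 0.186 and SNHG15 at 6.03 ± 0.309. Only GAS5 with ZFAS1 and ZFAS1 with SNHG5 overlapped among neighbours in this order. SNHG12 thus went from the sixth place among the host genes to the ninth. Ranked by the same level among the 1586 tested lncRNA genes, SNHG7 was at rank 197 among wild type levels and at 23 in HSF1-pLVX cells, SNHG8 at 16 and 5, GAS5 at 15 and 6, ZFAS1 at 12 and 7, and SNHG12 at 46 and 65.

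**Figure D3:**
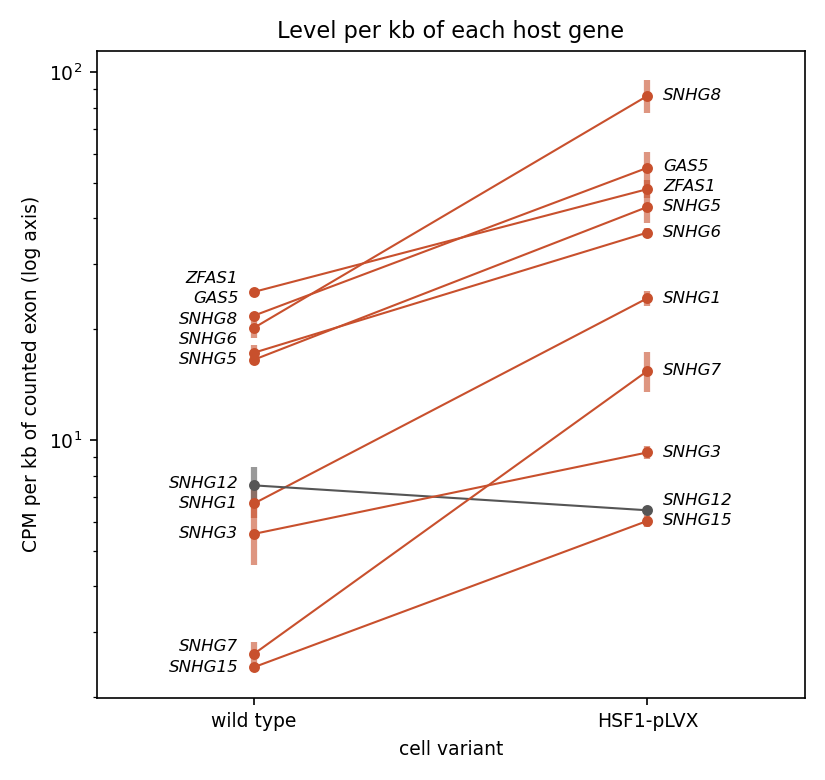
Level of each snoRNA host gene in CPM per kb of counted exon (log axis) in wild type and HSF1-pLVX cells, with points at the mean of the 2 libraries and thick bars over their range. SNHG8 moves from 20.2 to 86.1 and crosses GAS5 and ZFAS1, and SNHG12 (grey) is the only line that does not climb.

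The per-kb levels carry a limit of the counting. Of 705 genes that lie wholly within exons of another gene on the opposite strand, 704 had no count in any library, as had 972 of 1027 genes wholly within exons of another gene on their own strand, against 21136 of the 41471 genes that share no base. Bases shared with another gene on either strand therefore added almost nothing to a gene's count in these files. The share of such bases was 46.9% of the counted exon length in ZFAS1, 36.4% in SNHG6 and 31.4% in SNHG7, and between 1.16% and 15.3% in the other 7 host genes. On that account levels per kb of ZFAS1, SNHG6 and SNHG7 are too low by an amount that was not measured. The counted exons also take in 19 of 24 snoRNA genes within the host genes, so they include bases annotated elsewhere as intron. Counted exon length ran from 923 bases in SNHG8 to 4345 in SNHG7. Levels per kb of every host gene, their order and their lncRNA ranks thus depend on how much intron is annotated as exon. The fold changes compare the same bases in both variants.

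The snoRNAs within the host genes were themselves mostly uncounted. The count table held 24 genes with a SNORA or SNORD symbol within the host genes, and none within GAS5. Identifiers without such a symbol were left aside. Of the 24, 19 lie wholly inside host exons and were at 0 in all 4 libraries, so the files say nothing of their level. The other 5 had counts, and the 4 that share no base with an exon are shown with their box motifs in capitals, since these bases are what the host introns deliver (hg38, 5′ to 3′). The capitals mark the ACA box of SNORA73B, the D box CTGA of SNORD99, and the C box TGATGA and D box CTGA of SNORD12C and SNORD12B.
SNORA73B: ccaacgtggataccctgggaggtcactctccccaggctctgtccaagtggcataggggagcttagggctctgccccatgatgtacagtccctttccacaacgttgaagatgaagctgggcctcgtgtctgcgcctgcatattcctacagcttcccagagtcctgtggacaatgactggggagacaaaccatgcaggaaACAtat
SNORD99: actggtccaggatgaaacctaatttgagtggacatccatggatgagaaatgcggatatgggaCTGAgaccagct
SNORD12C: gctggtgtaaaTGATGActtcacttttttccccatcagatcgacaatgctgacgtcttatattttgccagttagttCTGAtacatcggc
SNORD12B: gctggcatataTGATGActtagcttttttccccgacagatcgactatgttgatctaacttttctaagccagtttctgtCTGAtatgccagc

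SNORA73B (chr1:28508559-28508762, plus strand), in an intron of SNHG3, had 21 and 35 counts in wild type and 34 and 24 in HSF1-pLVX libraries. The groups overlapped, and the log2 fold change was -0.22 ± 0.325 (95% interval -0.92 to 0.48, adjusted p = 0.567). SNORD12B (chr20:49280319-49280409, plus strand), in an intron of ZFAS1, had 10 and 15 counts in wild type and 22 and 10 in HSF1-pLVX libraries (log2 fold change 0.08 ± 0.417, 95% interval -0.82 to 0.97, adjusted p = 0.881). The intervals of SNORA73B and SNORD12B meet those of their hosts SNHG3 (0.45 to 1.02) and ZFAS1 (0.74 to 1.12). Both snoRNAs rest on few counts. Intervals that meet do not show that a snoRNA changed as its host did, and the difference between them was not tested. Reads of the unspliced host cannot be told apart from those of a snoRNA in its intron. SNORD12C (chr20:49278940-49279028, plus strand) held 5 to 8 counts in each library and SNORD30 within SNHG1 0 to 8, and neither was tested.

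SNORD99 (chr1:28578749-28578822, minus strand), in an intron of SNHG12, had 16 and 22 counts in wild type and 10 and 13 in HSF1-pLVX libraries. It was called lower, with a log2 fold change of -0.98 ± 0.398 (adjusted p = 0.0431). The call was lost with library-size scaling, with DESeq2, and when wild type replicate 2, HSF1-pLVX replicate 1 or HSF1-pLVX replicate 2 was left out, each of which left 0 of the 3 tested snoRNAs called.

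The strand setting of the counting is not given. Of 705 genes wholly within exons on the opposite strand, 704 had no count, as when reads are counted without regard to strand. Reads of the other strand may therefore count toward a host. Genes beside or overlapping the host genes were read for this reason and because a partner that shares a start can be set beside its host. Among all tested genes 32.7% were called higher and 33.2% lower. Among 12 tested protein-coding genes nearest to a host gene, 4 were higher, 5 lower and 3 not past the threshold. The median log2 fold change of these 12 genes was 0.04. The calls of PHACTR4, TAF12 and DDX27 among them were lost when 1 HSF1-pLVX library was left out (adjusted p = 0.178, 0.102 and 0.115). One of them is SLC3A2, the heavy chain of the CD98 amino acid transporters, which begins 188 bases from the start of SNHG1 and runs the other way. It was at 329.97 and 286.8 CPM in wild type and 727 and 814 CPM in HSF1-pLVX cells. Like SNHG1 it rose in both libraries (log2 fold change 1.32 ± 0.107, 95% interval 1.09 to 1.55, adjusted p = 7.25e-08). PRSS12, a secreted serine protease gene on the strand opposite to SNHG8, ends 215 bases beyond the end of SNHG8. It was at 24.1 and 21.9 CPM in wild type and 53.7 and 57.6 CPM in HSF1-pLVX cells (log2 fold change 1.28 ± 0.0944, 95% interval 1.07 to 1.48, adjusted p = 2.90e-08).

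None of the 6 reported genes that share exon bases with a host was called higher, against 32.7% of all tested genes. RCC1, the exchange factor of the GTPase Ran, lies on the strand of SNHG3, starts 37 bases before it and shares 242 exon bases with it. It was at 71.3 and 67.8 CPM in wild type and 73.5 and 71.9 CPM in HSF1-pLVX cells (log2 fold change 0.06 ± 0.0817, 95% interval -0.11 to 0.24, adjusted p = 0.508). ZNFX1, an RNA helicase-like gene that overlaps the start of ZFAS1 by 249 bases on the other strand, was at 227 and 201 CPM in wild type and 169 and 157 CPM in HSF1-pLVX cells. It was lower (log2 fold change -0.40 ± 0.0941, adjusted p = 0.00195) where ZFAS1 was higher, a call lost without HSF1-pLVX replicate 2 (adjusted p = 0.0964). TRNAU1AP, which overlaps the end of SNHG12 by 8 bases, was also lower (log2 fold change -0.49 ± 0.0948, adjusted p = 0.000358). The genes that share exon bases with SNHG6, SNHG7 and GAS5 on the other strand, MCMDC2, DIPK1B and GAS5-AS1, held at most 20 counts in any library and none was called, MCMDC2 being too low to be tested.

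**Figure D4:**
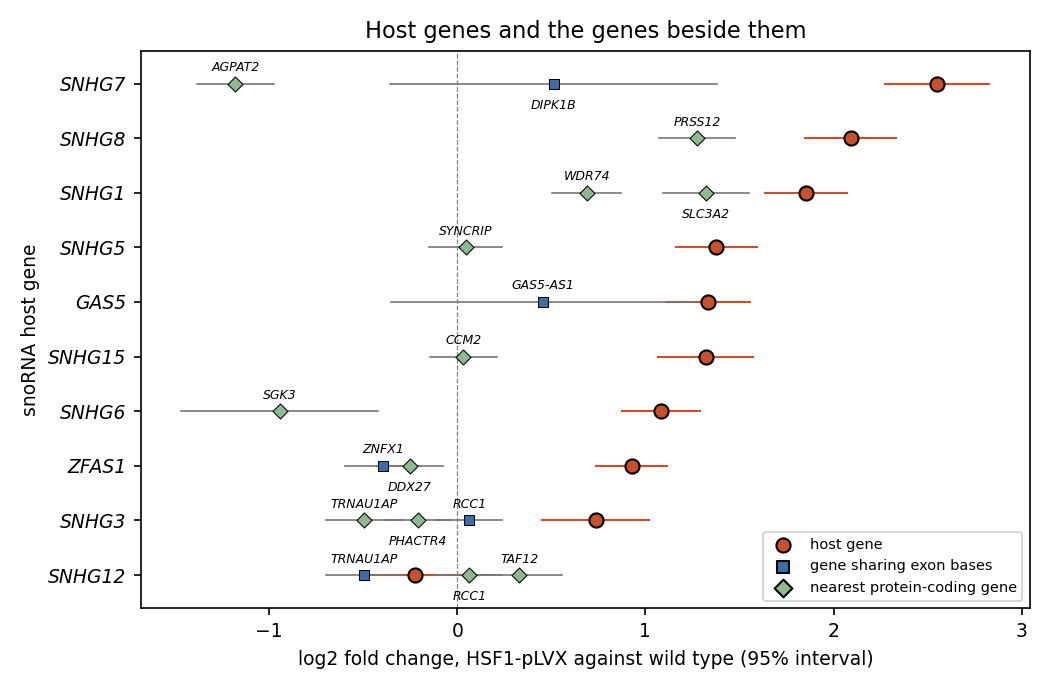
Log2 fold change in HSF1-pLVX against wild type cells, with 95% intervals, of each snoRNA host gene (circles), of reported genes that share exon bases with it (squares) and of its nearest reported protein-coding genes (diamonds). Among the partners SLC3A2 at 1.32 and PRSS12 at 1.28 are the highest, and the others lie at 0.69 or below.

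The promoters of the host genes were searched for the short motif that HSF1 is known to bind, in the window from 250 bases before to 50 bases after each RefSeq first base. The motifs were chosen with the values known, and a match is a description of letters. The array of 3 inverted repeats GAANNTTCNNGAA, which reads TTCNNGAANNTTC on the other strand, was found in 1 of 8 host genes, GAS5, and in 0.490% of 35116 promoters. The pair TTCNNGAA was found in GAS5, SNHG8 and ZFAS1, 3 of 8, against 7.74% of promoters, and the pair GAANNTTC in GAS5, 1 of 8, against 6.77%. Both pairs in GAS5 lie within the longer array. The E-box CACGTG was found in 1 of 8, SNHG7, against 7.26%. The matches in GAS5, SNHG8 and ZFAS1 are printed with the motif in capitals (GRCh38.p14, 5′ to 3′ on the strand of the gene), and begin 190 bases before the first base of GAS5, 4 bases after that of SNHG8 and 18 bases before that of ZFAS1.
GAS5: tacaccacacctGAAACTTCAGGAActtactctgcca
SNHG8: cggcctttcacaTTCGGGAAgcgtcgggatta
ZFAS1: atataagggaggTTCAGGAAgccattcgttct

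These positions are chr1:173869211-173869247 (minus strand), chr4:118278754-118278785 (plus strand) and chr20:49278612-49278643 (plus strand). The hosts with a match rose by log2 fold changes of 1.33, 2.09 and 0.93. SNHG7, SNHG1, SNHG5, SNHG3 and SNHG12, at 2.55, 1.85, 1.38, 0.74 and -0.23, had none of the heat shock motifs in this window. Whether a match goes with the size of the change was not tested.

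Most of the other noncoding snoRNA hosts were higher as well. Of 22 listed genes, 19 were tested, and 14 were higher, 1 was lower and 4 were not past the threshold, with a median log2 fold change of 1.26. The share called higher was 73.7%, against 32.7% of all tested genes. SNHG19 went from 30 and 30 counts in wild type to 227 and 193 in HSF1-pLVX cells (log2 fold change 2.54 ± 0.199, adjusted p = 5.31e-08). SNHG26 went from 10 and 21 counts to 85 and 65, a rise of 3.99-fold (adjusted p = 8.26e-05). The most abundant of them by CPM was SNHG29, at 199 and 180.8 CPM in wild type and 411.5 and 500.6 CPM in HSF1-pLVX cells (log2 fold change 1.26 ± 0.109, adjusted p = 1.44e-07). The 1 lower gene, SNHG31, named after its value was seen, had 8 to 18 counts per library, and its call was lost under DESeq2, without wild type replicate 1 and without HSF1-pLVX replicate 1, which each left 0 lower.

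Protein-coding hosts were also higher nearly throughout. All 38 listed were tested and 37 were higher (97.4%, against 32.7% of all tested genes), with a median log2 fold change of 1.06, below the 1.33 of the 10 noncoding host genes. The 23 ribosomal protein hosts were all higher (median 1.07), as were 14 of the 15 others (median 1.06). RPS2 and RPL3, of the small and the large ribosomal subunit, had the largest rises, at 1.48 and 1.37. The 1 exception, HSPA8, the constitutive heat shock cognate that hosts box C/D snoRNAs, was at 2153 and 1935 CPM in wild type and 1864 and 1875 CPM in HSF1-pLVX cells (log2 fold change -0.13 ± 0.108, adjusted p = 0.31) and was named after its value was seen. EEF1B2 rests on 15 to 82 counts per library.

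The proteins that bind and assemble snoRNAs were read next to their hosts. Of 19 listed genes 18 were tested, and 15 were higher, 1 lower and 2 not past the threshold, with a median log2 fold change of 0.82. The share called higher was 83.3%, against 32.7% of all tested genes. NOP56, NOP58 and DKC1 are in this list and among the protein-coding hosts. DKC1, the pseudouridine synthase of box H/ACA particles, rose by 1.27 ± 0.0871 (adjusted p = 1.34e-08) and NOLC1, a nucleolar chaperone of both classes, by 1.19 ± 0.0889 (adjusted p = 3.18e-08) on the log2 scale. NOP10, the smallest core protein of box H/ACA particles, was lower in both HSF1-pLVX libraries, from 92.1 and 90.4 CPM to 55.0 and 58.5 CPM (log2 fold change -0.69 ± 0.0827, adjusted p = 4.55e-06). Without HSF1-pLVX replicate 1, 2 genes of the list were lower. FBL, the methyltransferase of box C/D particles, had 4 and 2 counts in wild type and 20 and 40 in HSF1-pLVX libraries, so its call higher (log2 fold change 3.04 ± 0.605) rests on few counts and is uncertain.

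Of 18 tested factors of nonsense-mediated decay and the exon junction complex, 7 were higher (38.9%) and 6 lower (33.3%), with a median log2 fold change of -0.07. These shares are close to the 32.7% and 33.2% of all tested genes. MAGOH, an exon junction core protein, rose by 1.07 ± 0.113 (adjusted p = 1.17e-06) and PNRC2, a decapping adaptor, by 0.75 ± 0.0956 (adjusted p = 8.44e-06). SMG5, which recruits decay enzymes to UPF1, was at -1.02 ± 0.0907 (adjusted p = 2.01e-07). UPF1 itself was at 0.06 ± 0.0879 (adjusted p = 0.545) and was named after its value was seen. The count of higher genes fell to 4 without wild type replicate 1 or HSF1-pLVX replicate 1 and to 3 without HSF1-pLVX replicate 2, which left 2 lower, and it was 4 with the replicate block.

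**Figure D5:**
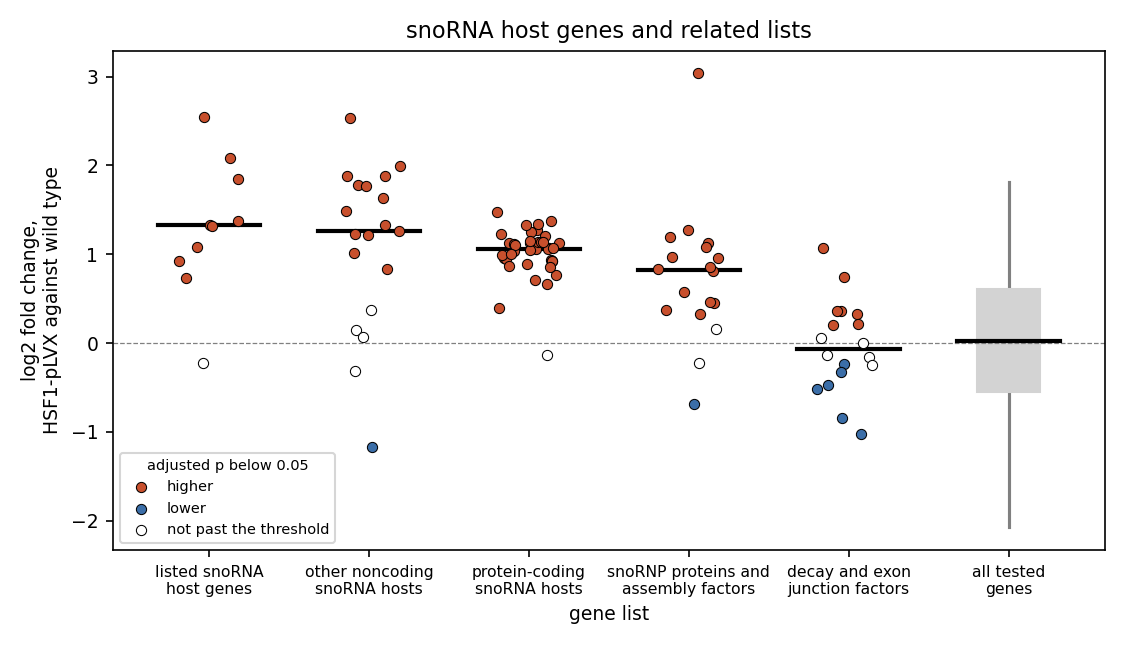
Log2 fold change in HSF1-pLVX against wild type cells of the 10 listed snoRNA host genes and 4 related lists, with a bar at each median and a box from the 25th to the 75th percentile of all tested genes (-0.55 to 0.61) with a line from the 5th to the 95th (-2.07 to 1.82). The medians are 1.33, 1.26, 1.06, 0.82 and -0.07 from left to right, and 0.02 over all tested genes.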

How the data were processed

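Per the labels, 2 wild type and 2 HSF1-pLVX libraries of MCF10A cells were sequenced from total RNA, and groups and replicate numbers were taken from the sample titles. The authors deposited unnormalized counts of each gene, from paired reads of 76 bases aligned to hg38 with HISAT2 2.0.5, processed with SAMtools 1.13 and counted with featureCounts 1.6.5 (versions from the submitters' processing notes). The strand and multi-mapping settings are not given in the sources used here. The authors also deposited values on a log2-like scale normalized with DESeq2 1.32.0, with 22321 rows, and fold changes computed from them. None of the 10 host genes is among these rows, and the fold changes were not used.

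Counts were tested as deposited with edgeR 4.0.16 in R 4.3.3 (TMM, filterByExpr, quasi-likelihood test on the variant alone). Adjustment was by Benjamini and Hochberg over 15830 genes, and genes were called at 0.05. The SE and 95% interval use 13.9 degrees of freedom, most of them borrowed across genes. An exact permutation test of 2 against 2 libraries cannot go below p = 0.333 and was not used. The scripts were tested on simulated data. The libraries of a pair differed by more than sampling noise (chi-square divided by its degrees of freedom 6.99 in the wild type pair, 8.91 in the HSF1-pLVX pair).

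Gene names came from GENCODE release 44, which named 57392 of the 63856 identifiers, and coordinates of genes are those of the count table. Sequences are from RefSeq, where 8 of the 10 host genes matched a promoter, and for snoRNAs from hg38. The host genes, the lists, the tests and the rule for naming genes were chosen with earlier results of these data known. The rule takes the host genes, HSF1, their overlapping and nearest genes, and from each list the 2 largest rises and 2 largest falls among called genes whose higher group held 50 counts or more in both libraries. SNHG29, SNHG31, HSPA8, FBL, EEF1B2 and UPF1 were added to the text after their values were seen. The check of overlapping genes was chosen after seeing the data. A few genes that the rule names are not reported here.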

Additional observations from a re-analysis of the deposited data

How the results depend on the processing

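All 9 host genes called higher stayed so under RLE scaling, library-size scaling, no filter, DESeq2 1.42.0, limma-voom 3.58.1, the replicate block and without each library, and 99 of 100 single values kept their direction and side of the threshold. The exception was SNHG12 without wild type replicate 1, so 0 to 1 host genes were lower when a library was left out. The median log2 fold change was then 1.21 to 1.37, and 1.32 with the replicate block. The replicate numbers did not pair the samples (correlation of same-numbered deviations 0.000143 over all tested genes), and with the block edgeR's prior degrees of freedom were infinite. Of other noncoding hosts, 0 were lower under DESeq2 and 0 to 1 without a library. Of snoRNA-binding proteins, 1 to 2 were lower without a library. Of decay factors, 4 were higher with RLE scaling, 4 without the filter, 3 with DESeq2 and 4 with the replicate block, and without a library 3 to 5 were higher and 2 to 6 lower. Of nested snoRNAs, 0 were lower with library-size scaling or DESeq2 and 0 to 1 without a library. Leaving out a library leaves 1 in its variant, assumed to vary like the other variant. Values from the deposited normalized table could not be tried, since the host genes are not among its rows. Low counts limit the nested snoRNAs, which held at most 35 in a library.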
